A study of Homo sapiens with 9 samples.

Results

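The E2F genes E2F1 to E2F8 and the pocket protein genes RB1 and RBL1 were followed in KHM-5M cells treated with YK-4-279. These 10 genes were picked by name as members of the family, from a table of 58735 genes, with earlier results of these data known. KHM-5M is an established human thyroid cancer cell line, and YK-4-279 is a small-molecule inhibitor of ETS transcription factors. RNA-seq was performed on cells kept for 24 h with DMSO (the solvent control), 0.3 μM of YK-4-279 or 1 μM of YK-4-279, with 3 samples per group and 9 samples in all. All samples came from this single cell line, and the treatments differed in dose only.

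E2F proteins bind promoters of genes for DNA replication and cell division, most of them as dimers with a DP protein. E2F1, E2F2 and E2F3 activate transcription, and the retinoblastoma protein, made from RB1, binds and silences them until cyclin-dependent kinases phosphorylate it in late G1. E2F4 and E2F5 mainly repress together with the pocket proteins p107, made from RBL1, and p130, made from RBL2. E2F6 represses without a pocket protein, as part of a polycomb complex. E2F7 and E2F8 are atypical repressors that bind DNA without a DP partner, and E2F factors also drive transcription of several E2F genes themselves. Loss of RB1 control over E2F is a frequent event in human cancer.

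Counts summed to between 16903251 and 18238884 per sample, and 3 counts, the limit that a count of 0 allows, came to 0.164 to 0.177 CPM (counts divided by the library total and scaled). This limit covers counting error only. Within the groups, all 9 pairs of samples differed by more than sampling noise, with a chi-square per degree of freedom of 3.2 to 10.66. Pairs with DMSO replicate 2 gave 10.66 and 6.86, and pairs with 0.3 μM replicate 3 gave 9.09 and 6.65. The remaining pair in DMSO gave 3.2, that at 0.3 μM gave 4.51, and the 1 μM pairs gave 4.33 to 5.38. The labels give 3 samples per group and do not say whether they came from separate cultures, while the study's methods describe 2 biological replicates per condition. The samples may therefore not all be independent, and the p-values measure only the spread between these samples, which may be technical. Of the thyroid markers, PAX8 was present at 22.8 FPKM (fragments scaled to gene length and library size) in DMSO, whereas TG, TSHR and SLC5A5 had at most 4 counts in any sample. Keratins KRT8 and KRT18 and the mesenchymal gene VIM were abundant, at 191, 132 and 454 FPKM in DMSO. The blood cell markers PTPRC, CD3E and HBB had at most 1 count in any sample. The monocyte marker CD14 had 8 to 37 counts, with means of 0.479 FPKM in DMSO, 0.464 FPKM at 0.3 μM and 1.02 FPKM at 1 μM, and its part in the results was not tested.

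All 10 genes passed the filter on low counts, with 162 to 2118 counts per sample. FPKM divides by gene length, so levels are compared between genes on this scale. In DMSO the order from high to low was E2F1 at 30.3 ± 4.51 FPKM (mean ± SD, n = 3), E2F4 at 26.4 ± 2.02 and E2F7 at 18.2 ± 0.43. RB1 followed at 14.4 ± 1.15, E2F8 at 10.5 ± 0.81, E2F3 at 9.05 ± 0.80 and RBL1 at 7.62 ± 0.34. The lowest levels were those of E2F5 at 4.20 ± 0.13, E2F2 at 3.67 ± 0.37 and E2F6 at 2.55 ± 0.26. E2F1 and E2F4 overlapped between samples, while every other pair of neighbours in this order was separate in all 3 DMSO samples. Among genes with an FPKM above 0 in DMSO, E2F1 lay at percentile 95.3 and E2F6 at percentile 67.4. An activator and a repressor thus led the family, and E2F1 had a higher level than E2F2 and E2F3 in each sample.

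**Figure D1:**
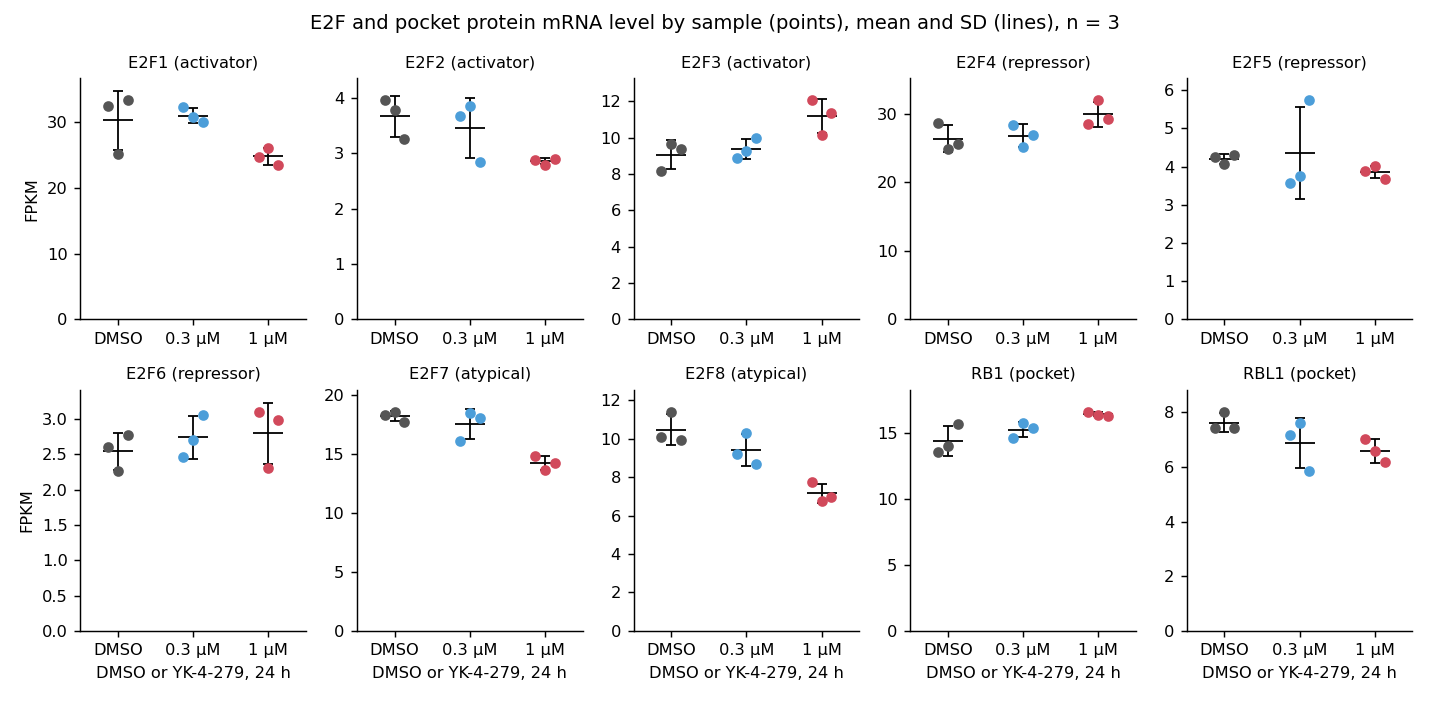
Level of each gene in FPKM (vertical axes, from 0, each with its own scale) in DMSO, 0.3 μM and 1 μM YK-4-279 after 24 h, with 1 point per sample and lines for the mean and SD of 3 samples. E2F7 and E2F8 at 1 μM lie below all DMSO and 0.3 μM samples, E2F3 at 1 μM lies above them, and the third sample at 0.3 μM stands apart for E2F5, E2F2 and RBL1.

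Of the 10 genes, 5 changed at 1 μM relative to DMSO at an adjusted p under 0.05 (edgeR's quasi-likelihood test, Benjamini-Hochberg adjustment over 15617 genes tested). E2F1, E2F2, E2F7 and E2F8 fell and E2F3 rose. Of all genes tested, 17.6% passed in either direction, 9.95% lower and 7.67% higher. The largest fold change of the 10 was that of E2F8, which fell by 32.4%. E2F4, E2F5, E2F6, RB1 and RBL1 did not pass. With a sample left out, 2 to 5 of the 10 passed, 2 of them without 1 μM replicate 1 or 3 and 3 without DMSO replicate 1 or 1 μM replicate 2. The 1.5-fold cutoff that the study applied to protein-coding genes was joined here to the adjusted p under 0.05. By this rule 0 of the 10 genes passed, against 3.91% of protein-coding genes. The study words its own rule as a P-value under 0.05, so its gene counts were not compared with these. The median absolute log2 fold change was 0.26 for the 10 genes and 0.17 for all genes tested. At 0.3 μM, 0 of the 10 genes and 0% of 15762 genes passed. In bulk RNA, a smaller share of cells in a cell cycle phase and less RNA per cell cannot be told apart.

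**Figure D2:**
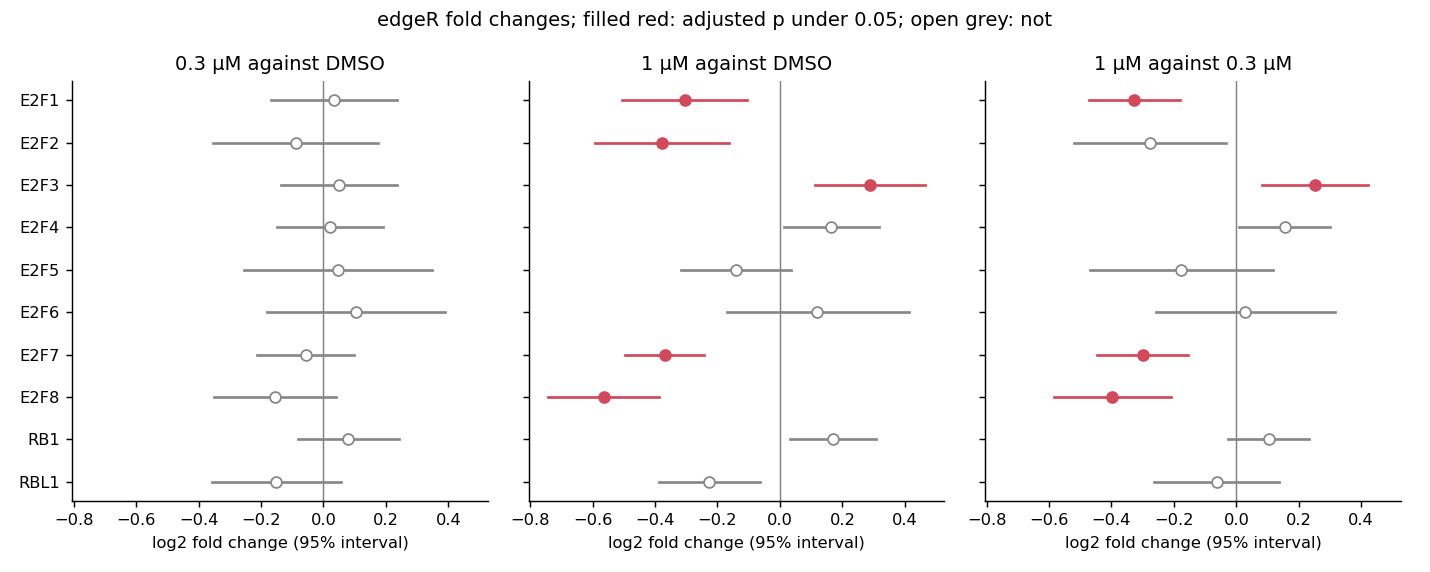
Log2 fold change of each gene (horizontal axes) with its 95% interval from edgeR for the 3 comparisons, with filled red points for an adjusted p under 0.05 and open grey points for the rest. At 1 μM against DMSO E2F1, E2F2, E2F7 and E2F8 lie to the left and E2F3 to the right, and at 0.3 μM all 10 intervals include 0.

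The promoters shown are the 4 in which the E2F letters given below were found (E2F1, E2F2, E2F3 and RBL1). Those of E2F7 and E2F4, in which they were not found, are shown beside them. Absence of these letters does not show absence of binding. Sequences are RefSeq's on GRCh38.p14, the 100 bases before the annotated start, 5′ to 3′ on the gene's own strand. Capitals mark the letters searched for as an E2F element (TTTCCCGC, TTTGGCGC, TTTCGCGC or TTTGCCGC, on either strand). The coordinates are chr20:33686386-33686485 (minus strand) for E2F1, chr1:23531234-23531333 (minus) for E2F2 and chr6:20401779-20401878 (plus) for E2F3. They are chr20:37095998-37096097 (minus) for RBL1, chr12:77065570-77065669 (minus) for E2F7 and chr16:67192055-67192154 (plus) for E2F4.
E2F1: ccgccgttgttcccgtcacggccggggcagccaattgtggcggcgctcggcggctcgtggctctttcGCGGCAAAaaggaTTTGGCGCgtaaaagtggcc
E2F2: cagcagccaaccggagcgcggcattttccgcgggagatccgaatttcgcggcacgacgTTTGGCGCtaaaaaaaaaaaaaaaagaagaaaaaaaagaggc
E2F3: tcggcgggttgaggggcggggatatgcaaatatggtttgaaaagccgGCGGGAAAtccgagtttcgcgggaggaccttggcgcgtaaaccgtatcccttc
RBL1: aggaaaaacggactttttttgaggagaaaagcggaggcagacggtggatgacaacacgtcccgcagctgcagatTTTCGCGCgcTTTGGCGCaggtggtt
E2F7: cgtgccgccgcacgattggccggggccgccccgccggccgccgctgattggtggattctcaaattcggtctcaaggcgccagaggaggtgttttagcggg
E2F4: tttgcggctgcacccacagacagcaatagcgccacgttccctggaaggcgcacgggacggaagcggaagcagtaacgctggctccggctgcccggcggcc

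The promoters in the table run from 250 bases before to 50 bases after the start. Of the 10 genes, 7 were searched, in entries near the gene start of the count table. E2F8, which had no entry, and RB1, whose entry lies far inside the gene, were not searched. Entries on chromosome 8, where E2F5 lies, were left out of the search. The E2F letters were found in 4 of these 7, against 3.31% of 35116 promoters. E2F1 and RBL1 held 2 matches each, and E2F2 and E2F3 held 1 each. E2F3 had a second entry, 1708 bases downstream of the gene start, with 0 matches for each motif searched. The matches given for E2F3 are those of the entry shown above. In E2F1 the matches ended 13 and 26 bases before the start, and in RBL1 9 and 19 bases before it. The letters CCAAT, the element bound by NF-Y, were found in E2F1 (3 matches), E2F3 (4) and E2F7 (4), against 34.6% of promoters. The CHR letters (TTTGAA or TTCGAA), an element bound by the MuvB complex, were found in E2F3 alone of the 7, against 16.4% of promoters. The ETS core CCGGAA was found in E2F2, E2F7 and RBL1, against 17.2% of promoters. Among the 7 genes searched, E2F letters were found in genes that fell (E2F1, E2F2), the gene that rose (E2F3) and a gene that did not pass (RBL1). These matches describe letters in a window and do not show binding.

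The activators did not move together at 1 μM. E2F1 (ENSG00000101412, GRCh38 chromosome 20, 33675683 to 33686404, minus strand), the activator best known for induction of S phase and of apoptosis, was measured at 32.4, 25.1 and 33.4 FPKM in DMSO. Its levels were 32.3, 30.8 and 30.0 FPKM at 0.3 μM and 24.7, 26.1 and 23.6 FPKM at 1 μM. The second DMSO sample was low and lay within the range of the 1 μM samples, while the other DMSO samples and all 0.3 μM samples lay above it. At 1 μM E2F1 fell by 0.31 on the log2 scale relative to DMSO (SE 0.09, 95% interval -0.51 to -0.11, edgeR adjusted p = 0.0361). With each sample left out in turn, E2F1 passed in 1 of 6 fits, without DMSO replicate 2 (log2 fold change -0.42, adjusted p = 0.000253). Relative to 0.3 μM, where the groups did not overlap, it fell by 0.33 (95% interval -0.47 to -0.18, adjusted p = 0.0055).

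E2F2 (ENSG00000007968, chromosome 1, 23506430 to 23531220, minus strand), an activator linked to proliferation of blood cell precursors, was the lowest of the activators. Its levels were 3.96, 3.79 and 3.25 FPKM in DMSO, 3.67, 3.85 and 2.84 FPKM at 0.3 μM and 2.88, 2.79 and 2.90 FPKM at 1 μM. All 1 μM samples lay below all DMSO samples, and the third sample at 0.3 μM lay among them. E2F2 fell by 0.38 at 1 μM relative to DMSO (SE 0.10, 95% interval -0.59 to -0.16, edgeR adjusted p = 0.0185), and its level fell by 23.0%. It passed in 2 of 6 fits with a sample left out, and the highest adjusted p among these was 0.0666. Relative to 0.3 μM its log2 fold change was -0.28 (adjusted p = 0.129), and without 0.3 μM replicate 3 it passed (log2 fold change -0.41, adjusted p = 0.0131).

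E2F3 (ENSG00000112242, chromosome 6, 20401906 to 20493715, plus strand), whose transcripts encode both a long and a short E2F3 protein, moved in the other direction. It was measured at 8.14, 9.64 and 9.36 FPKM in DMSO, at 8.89, 9.27 and 9.98 FPKM at 0.3 μM and at 12.1, 10.2 and 11.3 FPKM at 1 μM. Every 1 μM sample lay above every DMSO and 0.3 μM sample, the second one by little. E2F3 rose by 0.29 at 1 μM (SE 0.08, 95% interval 0.11 to 0.47, edgeR adjusted p = 0.0257), an increase of 22.2%. The rise passed in 2 of 6 fits with a sample left out (highest adjusted p 0.111). Relative to 0.3 μM the rise was 0.25 (adjusted p = 0.0485), and it passed in 3 of 13 alternative fits. Counts per gene do not separate the long from the short transcripts.

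The balance of E2F1 and E2F3 followed from these values. The ratio of E2F1 to E2F3 in FPKM was 3.99, 2.61 and 3.56 in the DMSO samples, 3.64, 3.32 and 3.01 at 0.3 μM and 2.05, 2.57 and 2.08 at 1 μM. All 1 μM samples lay below all other samples, the second DMSO sample being close to them. This ratio is given as a description, without a test.

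None of the canonical repressors passed at either dose by edgeR, DESeq2 or limma with all samples. E2F4 (ENSG00000205250, chromosome 16, 67192169 to 67198918, plus strand), the main E2F in quiescent cells, was measured at 28.6, 24.8 and 25.6 FPKM in DMSO. Its levels were 28.4, 25.1 and 26.9 FPKM at 0.3 μM and 28.5, 32.0 and 29.2 FPKM at 1 μM. The groups overlapped through the first DMSO sample. The log2 fold change of E2F4 at 1 μM was 0.16 (95% interval 0.01 to 0.32, edgeR adjusted p = 0.127), and without DMSO replicate 1 it passed (adjusted p = 0.0351). At 1 μM E2F4 had the highest level of the E2F genes (29.9 ± 1.83 FPKM), above E2F1 (24.8 ± 1.29 FPKM) in each sample. The ratio of E2F1 to E2F4 was 1.01 to 1.30 in DMSO, 1.12 to 1.23 at 0.3 μM and 0.806 to 0.867 at 1 μM, with no overlap between 1 μM and either other group.

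E2F5 (ENSG00000133740), a partner of the pocket proteins in repression, was measured at 4.26, 4.06 and 4.30 FPKM in DMSO and at 3.88, 4.01 and 3.68 FPKM at 1 μM. At 0.3 μM the values were 3.58, 3.74 and 5.74 FPKM. The third sample at 0.3 μM stood far above the other 8 samples, with 595 counts against 369 to 437. The 1 μM and DMSO samples did not overlap, though by a small margin, and the log2 fold change was -0.14 (95% interval -0.32 to 0.04, edgeR adjusted p = 0.266). E2F5 overlaps C8orf59 on the opposite strand, which had 404 to 572 counts per sample. The study's methods name a stranded library kit and the labels an RNA kit without that word. Whether strand was used in counting is not given in the sources used here, so reads of the pair may not be separated.

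E2F6 (ENSG00000169016, chromosome 2, 11444375 to 11466177, minus strand) had the lowest level, with 162 to 232 counts per sample. Its levels were 2.60, 2.26 and 2.78 FPKM in DMSO, 2.46, 2.70 and 3.06 FPKM at 0.3 μM and 3.10, 2.30 and 2.99 FPKM at 1 μM, and all groups overlapped. The log2 fold change at 1 μM was 0.12 with a 95% interval from -0.17 to 0.41 (edgeR adjusted p = 0.59). Changes of a size within this interval remain possible.

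Both atypical repressors fell at 1 μM, in the reported fit and in every alternative fit. E2F8 (ENSG00000129173, chromosome 11, 19224063 to 19241620, minus strand), which represses E2F1 and S phase genes, was measured at 10.1, 11.4 and 9.92 FPKM in DMSO. Its levels were 9.21, 10.3 and 8.71 FPKM at 0.3 μM and 7.74, 6.77 and 6.98 FPKM at 1 μM. The 1 μM samples lay below all others, and the 0.3 μM samples overlapped with DMSO. E2F8 fell by 0.56 at 1 μM relative to DMSO (SE 0.08, 95% interval -0.74 to -0.39, edgeR adjusted p = 0.00049) and by 0.40 relative to 0.3 μM (adjusted p = 0.00838). The fall relative to DMSO passed in 13 of 13 alternative fits, with log2 fold changes of -0.62 to -0.49.

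E2F7 (ENSG00000165891, chromosome 12, 77021247 to 77065580, minus strand), which acts in pairs with itself or E2F8, was the more abundant of them. It was measured at 18.3, 18.5 and 17.7 FPKM in DMSO, at 16.0, 18.4 and 18.0 FPKM at 0.3 μM and at 14.8, 13.6 and 14.2 FPKM at 1 μM. The 1 μM samples again lay below all others, while 0.3 μM and DMSO overlapped. E2F7 fell by 0.37 at 1 μM (SE 0.06, 95% interval -0.50 to -0.24, edgeR adjusted p = 0.000843), so that the level fell by 22.6%, and by 0.30 on the log2 scale relative to 0.3 μM (adjusted p = 0.00978). The fall relative to DMSO passed in 13 of 13 alternative fits (adjusted p 1.5e-05 to 0.0082).

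The ratio of E2F8 to E2F7 was 0.552, 0.615 and 0.561 in DMSO, 0.574, 0.560 and 0.484 at 0.3 μM and 0.523, 0.497 and 0.490 at 1 μM. The 1 μM samples were below the DMSO samples and overlapped with those at 0.3 μM. By class, the summed FPKM of E2F7 and E2F8 was 27.6 to 29.9 in DMSO, 25.2 to 28.7 at 0.3 μM and 20.4 to 22.5 at 1 μM. The summed level of E2F4, E2F5 and E2F6 was 31.1 to 35.5 FPKM in DMSO and 35.5 to 38.3 FPKM at 1 μM, and that of E2F1, E2F2 and E2F3 was 38.6 to 46.0 and 37.8 to 39.6 FPKM. Of the summed FPKM of all 8 E2F genes, E2F4 to E2F6 made up 30.8% to 32.8% in DMSO and 36.3% to 39.1% at 1 μM. The share of E2F7 and E2F8 was 26.0% to 30.0% in DMSO and 20.9% to 23.1% at 1 μM. The shares of these classes did not overlap between DMSO and 1 μM, whereas that of E2F1 to E2F3 did, at 38.7% to 43.3% and 39.8% to 40.6%. These sums describe mRNA levels, weigh abundant members most and were not tested.

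**Figure D3:**
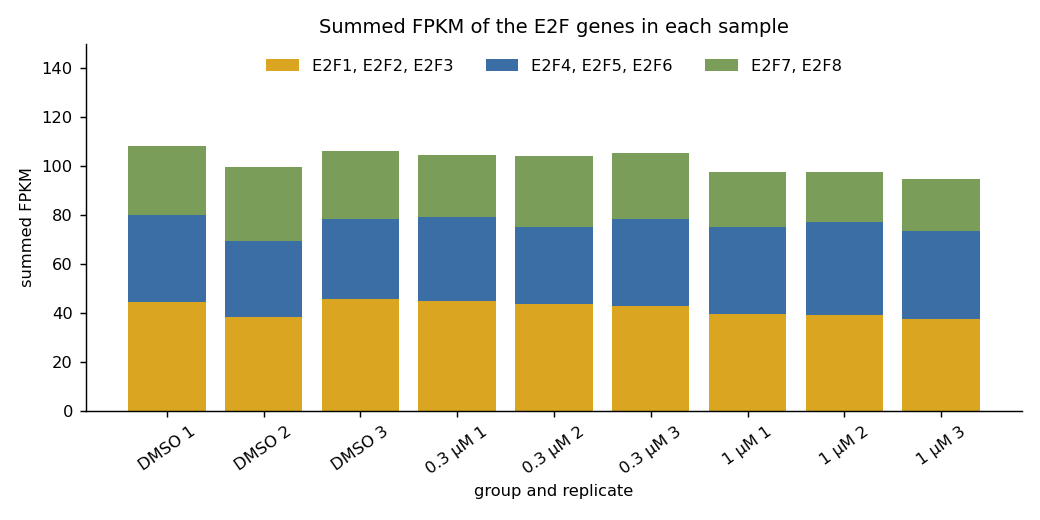
Summed FPKM (vertical axis, from 0) of the activators E2F1 to E2F3 (bottom), the repressors E2F4 to E2F6 (middle) and the atypical E2F7 and E2F8 (top) in each of the 9 samples. The top segment is 20.4 to 22.5 FPKM in the 1 μM samples and 25.2 to 29.9 FPKM in the others, while the totals run from 94.9 to 108 FPKM.

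The pocket proteins RB1 and RBL1 had opposite signs at 1 μM and neither passed the test. RB1 (ENSG00000139687, chromosome 13, 48303726 to 48599436, plus strand), the retinoblastoma tumor suppressor, was measured at 13.5, 14.0 and 15.7 FPKM in DMSO. Its levels were 14.6, 15.7 and 15.4 FPKM at 0.3 μM and 16.6, 16.4 and 16.3 FPKM at 1 μM. All 1 μM samples lay above all others. The log2 fold change relative to DMSO was 0.17 (95% interval 0.03 to 0.31, edgeR adjusted p = 0.0819), and RB1 passed without DMSO replicate 3 (adjusted p = 0.0483). RB1 transcripts were present in every sample, with 1511 to 1968 counts.

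RBL1 (ENSG00000080839, chromosome 20, 36996349 to 37095995, minus strand), itself a known E2F target, was measured at 7.41, 8.01 and 7.43 FPKM in DMSO and at 7.03, 6.57 and 6.16 FPKM at 1 μM. The values at 0.3 μM were 7.15, 7.61 and 5.84 FPKM, the third sample being the lowest of all 9. RBL1 at 1 μM lay below DMSO in all samples, with a log2 fold change of -0.23 (95% interval -0.39 to -0.07, edgeR adjusted p = 0.052). It passed in 0 of 13 alternative fits (adjusted p 0.0534 to 0.222). The ratio of RBL1 to RB1 was 0.473 to 0.572 in DMSO and 0.379 to 0.424 at 1 μM, with the 0.3 μM samples (0.379 to 0.490) across both ranges. RBL2, the third pocket protein gene, was at 12.8 FPKM in DMSO and 11.7 FPKM at 1 μM and did not pass (log2 fold change -0.15, adjusted p = 0.12).

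Counted over the family, the DMSO and 1 μM samples did not overlap in CPM for 7 of the 10 genes (E2F2, E2F3, E2F5, E2F7, E2F8, RB1 and RBL1), against 37.4% of all genes tested. Between DMSO and 0.3 μM the samples did not overlap for 0 of the 10, against 8.47%. The intervals at 0.3 μM give the sizes that remain possible. For E2F7 the 95% interval of the log2 fold change was -0.21 to 0.10, and for E2F8 it was -0.35 to 0.04. For E2F1 it was -0.17 to 0.24, for E2F3 -0.14 to 0.24 and for E2F5 -0.25 to 0.35. For E2F2 it was -0.353 to 0.175, for E2F4 -0.15 to 0.19 and for E2F6 -0.18 to 0.39. Those of RB1 and RBL1 were -0.08 to 0.24 and -0.358 to 0.055. The lowest unadjusted p of the 10 at 0.3 μM was 0.109 in edgeR, for E2F8, so that 0 of the 10 passed 0.05 even without adjustment, against 3.77% of genes. DESeq2 called 0 of the 10 and 1 gene in all.

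The direct comparison of the doses called 4 of the 10 genes at 1 μM relative to 0.3 μM, namely E2F1, E2F7 and E2F8 as lower and E2F3 as higher, against 12.6% of 15583 genes tested. This comparison and that with DMSO share the 1 μM samples and are not independent. The median log2 fold change of the 10 genes was -0.12 between the doses and -0.18 relative to DMSO, while that of all genes was 0.003 and -0.008. The third sample at 0.3 μM was the lowest of its group in FPKM for E2F1, E2F2, E2F8 and RBL1 and the highest for E2F3, E2F5 and E2F6. Without it, 5 of the 10 genes passed between the doses, while 1 passed without 0.3 μM replicate 2 and 2 without 1 μM replicate 3. The number of all genes passing also moved in the fits with a sample left out, as given below.

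Genes around the E2F factors were followed in lists of partners, regulators and targets. Their counts at 1 μM relative to DMSO are read against the 9.95% of all genes tested that fell and the 7.67% that rose, 17.6% in all. Neither DP partner tested passed, with TFDP1 at 56.4 and 55.3 FPKM in DMSO and at 1 μM (95% interval of the log2 fold change -0.16 to 0.07, edgeR adjusted p = 0.617). TFDP2 was at 3.72 and 3.73 FPKM (-0.21 to 0.19, adjusted p = 0.942), and TFDP3 had 0 counts in all samples. Of 11 genes of the E2F6 complex, 1 passed at 1 μM, RYBP, a polycomb subunit that rose by 0.29 (adjusted p = 0.0131) and did not pass in every alternative fit. This is 9.09% of the list, below the share of all genes. Of 8 genes of the MuvB core with MYBL1, MYBL2 and FOXM1, which drive mitotic genes or repress them in quiescence, 1 passed (12.5%, also below the share of all genes). It was MYBL1, which fell by 0.36, from 18.4 ± 0.71 to 14.5 ± 0.71 FPKM (n = 3, edgeR adjusted p = 0.00113). MYBL2, the most abundant of them, was at 100.1 and 95.4 FPKM (adjusted p = 0.35), and FOXM1, which overlaps RHNO1 on the opposite strand, was at 38.5 and 37.5 FPKM (adjusted p = 0.625). LIN9, LIN37, LIN52, LIN54 and RBBP4 had log2 fold changes of -0.28 to -0.05 and did not pass.

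Among 8 genes of the G1 cyclins and their kinases, which phosphorylate the pocket proteins, 2 rose and 2 fell at 1 μM, 50% of this short list against 17.6% of all genes (1 to 2 fell over 13 alternative fits). CCND1, which encodes cyclin D1, rose by 0.36, from 61.9 ± 1.07 to 80.3 ± 3.09 FPKM (n = 3, edgeR adjusted p = 0.000478). Its kinase partner gene CDK6 rose by 0.31 (adjusted p = 0.00299), while the other partner, CDK4, fell by 0.21 (adjusted p = 0.0157). CDK2, the kinase of cyclin E, fell by 0.35, from 38.3 to 30.5 FPKM (adjusted p = 0.00166). The cyclin E genes CCNE1 and CCNE2 had log2 fold changes of -0.03 and 0.06 (adjusted p = 0.9 and 0.784), and those of CCND2 and CCND3 were -0.18 and 0.11 (adjusted p = 0.62 and 0.316). CCND1 and CDK4 each overlap genes on the opposite strand with means of 348 to 434 counts, CCNE2 overlaps INTS8 with a mean of 1912 counts, and these were not separated here.

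Of 7 CDK inhibitor genes, 2 rose and 3 fell, 71.4% of the list against 17.6% of all genes (1 to 3 fell over 13 alternative fits). CDKN1A, which encodes p21, rose by 0.65, from 7.94 ± 0.02 to 12.6 ± 0.32 FPKM (n = 3, edgeR adjusted p = 7.82e-05). CDKN2B, which encodes p15, rose by 0.50, from 7.30 to 10.4 FPKM (adjusted p = 0.000829). CDKN2D, CDKN2A and CDKN1B, for p19, p16 and p27, fell by 0.46, 0.27 and 0.22 (adjusted p = 0.00661, 0.0271 and 0.0172). CDKN2C and CDKN1C had log2 fold changes of -0.09 and 0.14 (adjusted p = 0.443 and 0.349). CDKN2A and CDKN2B overlap the antisense gene CDKN2B-AS1, which had a mean of 63.9 counts. The inhibitors of CDK4 and CDK6 thus held genes that rose and genes that fell. For this list the median log2 fold change was -0.09 although the largest change was a rise.

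The list of G1/S targets of E2F, genes of replication origins, DNA polymerases, nucleotide supply and their regulators, was lower at 1 μM. Of 40 genes tested, CCNE1 and CCNE2 among them, 32 (80%) fell and 0 rose, against 9.95% and 7.67% of all genes tested. The median log2 fold change was -0.30, against -0.008 for all genes. Over 13 alternative fits, 23 to 32 fell. The largest changes were those of BRCA2, for homologous recombination, and of POLE, the leading strand polymerase. BRCA2 fell by 0.93, from 1.75 ± 0.18 to 0.93 ± 0.40 FPKM (n = 3, edgeR adjusted p = 0.00631), with a wide spread at 1 μM. POLE fell by 0.51 (edgeR adjusted p = 0.000123). EZH2, the polycomb methyltransferase, fell by 0.48, from 23.1 ± 0.96 to 16.7 ± 0.61 FPKM (n = 3, edgeR adjusted p = 0.000159). Per sample, the list's median log2 level relative to the DMSO mean was -0.21, -0.27 and -0.31 at 1 μM. At 0.3 μM it was -0.007, -0.018 and -0.18, so that the third sample stood near the 1 μM samples. At 0.3 μM 0 of the 40 genes passed in edgeR or in any of 13 alternative fits, 3 had an unadjusted p under 0.05, and the median log2 fold change was -0.08, or -0.02 without that sample. Between the doses 14 of the 40 fell (6 to 24 over 13 alternative fits).

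The list of G2/M targets of MuvB, MYB and FOXM1 was mixed. Of 30 genes, 14 fell and 2 rose at 1 μM (53.3% in all, against 17.6% of all genes), with a median log2 fold change of -0.16. The number that rose was near the 7.67% of all genes that did. The largest falls were those of PRC1, a spindle midzone protein, by 1.14 (adjusted p = 0.00079), of CENPE, a kinetochore motor, by 1.11 (adjusted p = 0.0149) and of CENPF by 0.81 (adjusted p = 0.0201). PRC1 had a mean of 92.3 counts and overlaps AC068831.7 on the same strand (345 counts), which makes its value uncertain, and the groups overlapped for CENPE and CENPF. The genes that rose were the mitotic kinase gene AURKA, by 0.23 (adjusted p = 0.00876), and the cyclin B1 gene CCNB1, by 0.21 (adjusted p = 0.0205). Over 13 alternative fits, 10 to 15 fell and 1 to 4 rose. Flow cytometry in the study, at an earlier time, found a significantly larger G2/M share of this cell line at 1 μM. No significant increase was reported there at the lower dose. The cell cycle phases of the sequenced samples were not measured here, and their part in the changes of the E2F genes was not tested.

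**Figure D4:**
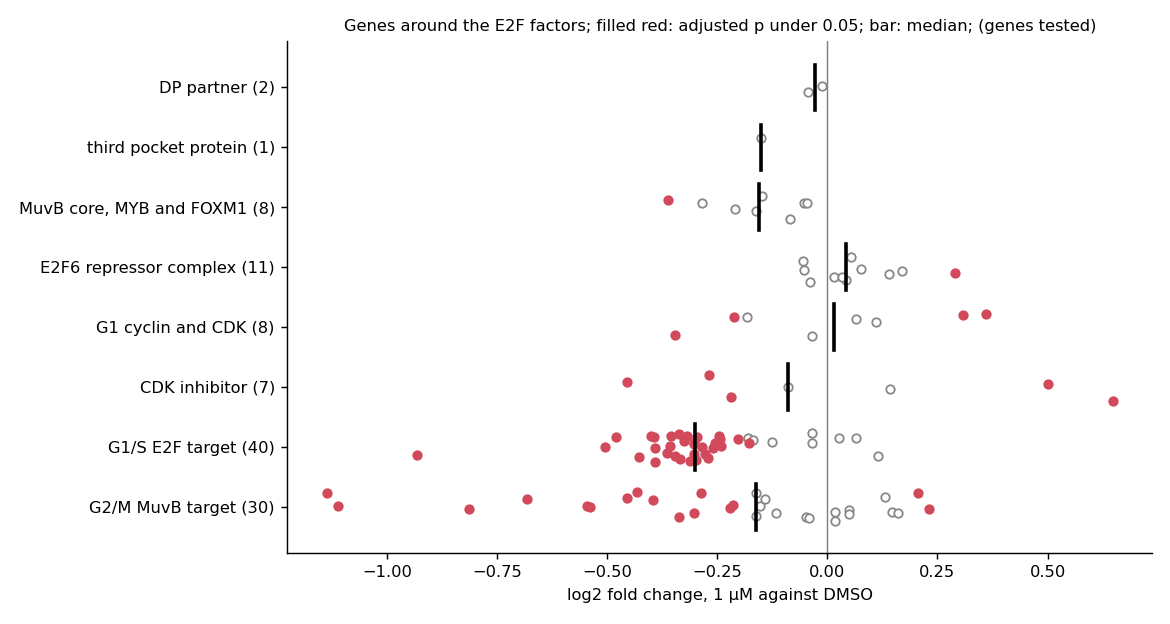
Log2 fold change at 1 μM relative to DMSO (horizontal axis) of each gene in 8 lists around the E2F factors, with filled red points for an edgeR adjusted p under 0.05, open points for the rest, a black bar at the list's median and the number of genes tested in brackets. In the G1/S list 32 of 40 points are filled and all of these lie to the left of 0, while the cyclin, kinase and inhibitor lists hold filled points on both sides.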

How the data were processed

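RNA-seq of 9 samples in 3 groups of 3 was analysed. The authors aligned poly(A)-selected reads to GRCh38. The submitters' processing notes name HISAT2 2.0.5 and featureCounts 1.5.0-p3, while the study's methods name HTseq. The deposited counts are whole numbers per gene, without normalization, and the deposited FPKM values divide counts by gene length and library size. The authors' DESeq2 1.20.0 columns (fold changes and p-values) were not used.

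Counts were tested with edgeR 4.0.16 in R 4.3.3 (glmQLFit, glmQLFTest, TMM, filterByExpr with a minimum count of 10) on the groups compared, with Benjamini-Hochberg adjustment over all genes tested. A gene passed at an adjusted p under 0.05. FPKM served for levels. Log2 CPM used a prior count of 2. In simulated data over 15601 genes for 1 μM against DMSO, edgeR recovered 95 of 100 genes changed by a log2 of 0.6 and 100 of 100 changed by 1, with 16 false calls. The simulation gave all genes the same dispersion. It held no change below 0.6, so it does not give the recovery at the smaller sizes measured for the 10 genes.

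Alternatives, 13 per gene and comparison, were DESeq2 1.42.0, RLE factors, library totals, a minimum count of 1, a joint fit of all 9 samples, a block for the replicate number, limma 3.58.1 on log2(FPKM + 0.1) and each sample left out. The study's fold cutoff (over 1.5-fold, protein-coding) was applied to the counts of genes, together with the adjusted p under 0.05.

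The 10 genes and the lists, written by hand, were chosen with earlier results of these data known. Single genes of the short lists were named, and from the others the 3 largest changes per direction among those that passed. Motifs were searched on both strands of RefSeq promoters (GRCh38.p14). RB1's entry there lies 172724 bases inside the gene and was not used. E2F8 had no entry. Entries on chromosome 8, where E2F5 lies, were left out. Python 3.11.15, pandas 2.3.3 and matplotlib 3.10.9 were used for tables and figures. A total of 16903251 to 18238884 counts per sample sets the precision, with at least 162 counts behind each value of the 10 genes.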

Additional observations from a re-analysis of the deposited data

How the results depend on the processing

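Relative to the 5 of 10 genes that passed at 1 μM against DMSO, 5 passed under DESeq2, RLE factors, library totals, a minimum count of 1 and the fit of all 9 samples. The number was 3 with the replicate block, 2 with limma on log2 FPKM, 0 with the 1.5-fold cutoff and 2 to 5 with a sample left out. E2F7 and E2F8 passed in all 13 alternative fits. E2F1, E2F2 and E2F3 were lost under limma (adjusted p = 0.121, 0.0561 and 0.0602) and under most omissions of a sample. For E2F1 the highest adjusted p, 0.169, came without DMSO replicate 3. The number of all genes passing was 504 with the fold cutoff and 1683 to 2977 with a sample left out, against 2752, the lowest without DMSO replicate 3, followed by 1755 without 1 μM replicate 2.

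Between the doses, 0 of the 10 passed with the fold cutoff and 1 to 5 with a sample left out, the lowest without 0.3 μM replicate 2. Of all genes, 1110 passed with limma, 306 with the fold cutoff and 948 to 1884 with a sample left out, against 1963, the lowest without 1 μM replicate 3. At 0.3 μM against DMSO, 1 gene passed with the replicate block, 1 with DESeq2 and 0 to 4 with a sample left out, 4 of them without 0.3 μM replicate 3.

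The replicate block lost E2F1 and E2F3 at 1 μM (adjusted p = 0.0652 and 0.0569) and left 2120 genes passing, against 2752. Deviations of same-numbered samples correlated at -0.022 to 0.082. Between DMSO and 0.3 μM each sample correlated best with its own number. Between DMSO and 1 μM and between the doses not every sample did. As all correlations were low, the numbers were not taken as pairs in the reported fit.

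Directions changed with a sample left out only for values that had not passed. At 0.3 μM the log2 ranges were -0.083 to 0.107 for E2F1, -0.171 to 0.035 for E2F2, -0.019 to 0.101 for E2F3, -0.021 to 0.087 for E2F4, -0.201 to 0.171 for E2F5 and -0.094 to 0.003 for E2F7. Between the doses they were -0.297 to 0.067 for E2F5, -0.054 to 0.154 for E2F6 and -0.173 to 0.018 for RBL1. The causes were not tested.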

Other observations

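The protein-coding genes whose profile lay nearest to that of a family member were found over the 9 samples, as the smallest root mean square difference in log2 CPM relative to the DMSO mean, among 10551 genes with a mean of at least 5 CPM. Nearest to E2F8 were NUSAP1, a spindle-associated protein gene, at 0.057 and RBM25, a splicing regulator gene, at 0.06, against a median of 0.378 over all genes compared. Nearest to RBL1 were UNG, the uracil-DNA glycosylase gene, at 0.052 and CLSPN, the gene of the checkpoint adaptor claspin, at 0.054 (median 0.24). Nearest to E2F1 were MAN2A2 and TUBG2 at 0.051 and 0.055 (median 0.251), and nearest to E2F4 were ZNF710 and PCBP1 at 0.029 and 0.032 (median 0.173). The points share their libraries, and these are descriptions without a test.

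The neighbours of the E2F genes in the genome carried few reads. RB1 overlaps RCBTB2 on the opposite strand, with a mean of 79.9 counts, and every other gene within the bounds of a family member, C8orf59 at E2F5 excepted, had a mean of at most 7.7 counts. E2F1, E2F2, E2F4, E2F6 and E2F7 overlap no other gene in the table.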
